A study of Mus musculus with 4 samples.

Results

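The 9 genes described here carry glutamine and its exchange partners across the plasma membrane or process glutamine and glutamate inside the cell. They were chosen by name, as genes of glutamine uptake and glutaminolysis, by a rule that uses no measured value, although earlier results of these data were known when they were chosen. All 9 were found among the 32285 genes of the files. Single-cell RNA-seq libraries had been made from bone marrow cells grown for 4 days with the cytokines GM-CSF and IL-6, both at 40 ng/ml, a culture that yields myeloid-derived suppressor cells (MDSCs), and sorted as live CD11b+ cells, CD11b being an integrin of the myeloid surface. There were 4 libraries and 1 per group, namely WT+PBS, WT+ISO, B2AR-/-+PBS and B2AR-/-+ISO. ISO is isoproterenol, an agonist of the β-adrenergic receptors, present at 10 µM from the first day of culture. B2AR-/- is the label for mice lacking the β2-adrenergic receptor, on the C57BL/6 background. The mice of the study were 6 to 10 weeks old (the methods speak of both sexes and the reporting summary of females), and how many animals gave each culture is not given in the sources used here. All groups shared the cytokines and the CD11b+ sort. The titles and the methods reserve ISO for the groups named so, whereas the treatment field gives it for all 4 samples, and the titles were followed.

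Between 2039 and 2790 cells per library were kept, 9303 of 9525 in all, with 19357824 to 29400468 UMIs (unique molecular identifiers) per library and median cells of 7484 to 10252 UMIs. No cell barcode was shared between libraries (0 in all). The genotype of each library is taken from its label. Xist, a transcript of female cells, had 359 to 389 CPM in every library. The Y-linked genes Ddx3y, Uty, Eif2s3y and Kdm5d had 0.287 CPM or less, the pattern of female cells. Genes of red cells were almost absent (0.245 to 0.451 CPM summed over 5 genes, 3 of them at 0 in every library). The 7 mature neutrophil markers summed to values between 106312 and 131023 CPM. S100a8 and S100a9 outweigh the others in this sum, which therefore does not measure maturity. They had 41550 and 47379 CPM in cluster 1 below and 92504 and 120161 CPM in cluster 4. Eosinophil genes differed more, with sums over 5 genes, all detected, of 57.3 CPM in WT+PBS and 78.9 in B2AR-/-+PBS against 3.10 in WT+ISO and 4.39 in B2AR-/-+ISO, and their granule genes were at their highest in cluster 1 below (Prg2 at 80.3 CPM, against 2.12 CPM or less elsewhere). The macrophage list had 143, 61.1, 273 and 210.3 CPM in the order WT+PBS, WT+ISO, B2AR-/-+PBS and B2AR-/-+ISO, the dendritic cell list 1031.5, 349.9, 1183 and 877, and the azurophil list 4162, 5440, 3092 and 2311. The part of these cell shares in ratios over whole libraries was read from fixed cluster weights only.

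Glutamine is the most abundant free amino acid of plasma and enters cells mainly through sodium-coupled carriers. Inside the cell, glutaminase releases its amide nitrogen to give glutamate. Glutamate then becomes α-ketoglutarate, a metabolite of the TCA cycle, either by oxidation through glutamate dehydrogenase or by passing its amino group to oxaloacetate or pyruvate through aminotransferases. Glutamine synthetase runs the other way and makes glutamine from glutamate and ammonia. Among the carriers, Slc1a5 (ENSMUSG00000001918, chromosome 7, 16781334 to 16798274) encodes ASCT2, an exchanger of neutral amino acids. Slc38a1 (ENSMUSG00000023169, chromosome 15, 96571418 to 96643438) and Slc38a2 (ENSMUSG00000022462, chromosome 15, 96687392 to 96699728) encode SNAT1 and SNAT2, which load cells with glutamine and alanine together with sodium. Slc7a5 (ENSMUSG00000040010, chromosome 8, 121881146 to 121907686) encodes LAT1, which trades intracellular glutamine for leucine and other large neutral amino acids, and Slc3a2 (ENSMUSG00000010095, chromosome 19, 8706882 to 8723369) encodes 4F2hc (CD98 heavy chain), which carries LAT1 and several related carriers to the membrane.

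Among the enzymes, Glul (ENSMUSG00000026473, chromosome 1, 153899929 to 153909723) encodes glutamine synthetase, and Glud1 (ENSMUSG00000021794, chromosome 14, 34310727 to 34345033) encodes mitochondrial glutamate dehydrogenase. Got1 (ENSMUSG00000025190, chromosome 19, 43499752 to 43524605) and Got2 (ENSMUSG00000031672, chromosome 8, 95864133 to 95888401) encode the cytosolic and the mitochondrial aspartate aminotransferase, which work together in the malate-aspartate shuttle. Positions are those of RefSeq on GRCm38.p6, the assembly that the submitters' processing notes call mm10. Levels are given as CPM, a gene's UMIs scaled to the same total in every library or cluster of cells. Tags were counted without regard to gene length, so levels are compared between cells and libraries and not between genes. In sums over a library, fewer cells that hold a transcript and less transcript per cell cannot be told apart.

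Levels of most of these 9 genes differed more between kinds of cells than between libraries. Library sums average over the clusters, so a narrower spread between libraries can arise for any gene. Clustering without the members and the related pathway genes gave 7 clusters. Cluster 1 (1374 cells, led by Ctsg, Mpo and Elane) was azurophil-granule neutrophil progenitor-like. Cluster 4 (1122 cells, led by Camp and Ngp) was specific-granule neutrophil-like, and cluster 3 (2576 cells, led by Retnlg, with Mmp9) was mature neutrophil-like. Their markers were shared in part. Ltf, Lcn2 and Cd177 of the specific-granule list were higher in cluster 3 (6479, 17223 and 1014 CPM) than in cluster 4 (3050, 9595 and 629 CPM), unlike Camp and Ngp. Of the mature neutrophil list, Mmp8 and Csf3r were highest in cluster 2 (1750 and 253 CPM, against 1254 and 144 CPM in cluster 3). Cluster 0 (2079 cells, with Mrc1, Fn1 and C1qb among its leading genes) was monocyte- or macrophage-like. Of the monocyte list, Ccr2, F13a1 and Fn1 were highest there, but Ly6c2 (582 CPM) and Csf1r (159 CPM) were not. Ly6c2 had 1330 CPM in cluster 1 and 1687 in cluster 3, and Csf1r 184 in cluster 2. Cluster 0 also held Cd74 (1390 CPM) and H2-Aa (175 CPM) of the dendritic cell list, below cluster 6 (8411 and 2977 CPM). Gpnmb and Atp6v0d2 led cluster 2 (1884 cells), which stayed unnamed, with a median of 3146 UMIs per cell, 0.336 to 0.411 of the median of the same library, and so did cluster 5 (191 cells, led by stefin A genes such as Stfa3). Cluster 6 (77 cells, 0.828% of all, led by Ccl5, Ccl22 and Ccr7) was dendritic-cell-like and is described apart. Until then, clusters called highest or lowest are so among the 6 larger clusters. No test was made between clusters. The ranges that follow each level are those over the 4 libraries.

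**Figure D1:**
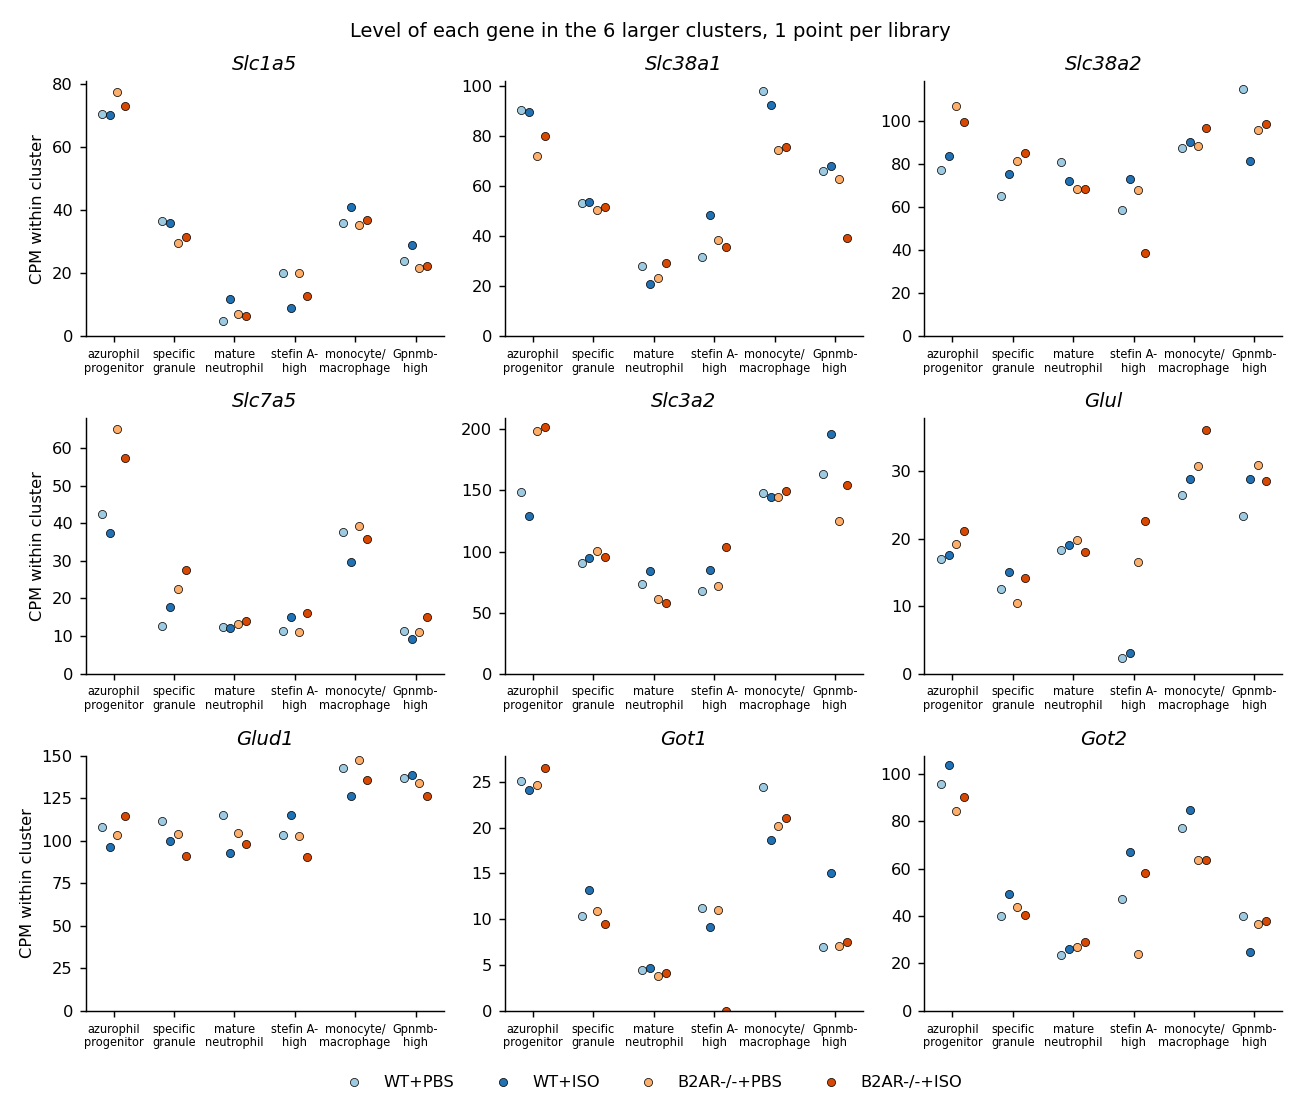
Level of each of the 9 genes (CPM within the cluster, linear axis from 0) in the 6 larger clusters, with 1 point per library coloured by group. Slc1a5, Got1 and Got2 stand highest in the azurophil progenitor-like cluster and lowest in the mature neutrophil-like cluster in the pooled cells, while Slc38a2 and Glud1 vary little between clusters.

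The glutamine exchanger ASCT2 showed the steepest difference. Slc1a5 had 72.3 CPM (70.2 to 77.3) in the azurophil progenitor-like cluster, 34.0 CPM (29.6 to 36.5) in the specific-granule cluster and 7.97 CPM (4.85 to 11.8) in the mature neutrophil-like cluster. By these cluster names, the level fell along the sequence in which granule genes are known to appear in neutrophil maturation. The markers behind the names are shared in part, and an order of the cells was not tested. It had 36.8 CPM (35.3 to 40.9) in the monocyte- or macrophage-like cluster, 23.9 CPM (21.7 to 28.8) in the Gpnmb-high cluster and 16.6 CPM (9.10 to 20.3) in the stefin A-high cluster. The highest level was 9.07-fold the lowest, against 1.23-fold between the highest and the lowest library. The monocyte- or macrophage-like and specific-granule clusters overlapped over the libraries, as did the stefin A-high and mature neutrophil-like clusters, and the other neighbours in this order stood apart. The azurophil progenitor-like cluster held 14.8% of the cells and 52.6% of all Slc1a5 UMIs.

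The sodium-coupled carriers SNAT1 and SNAT2 differed from each other. Slc38a1 was highest in the azurophil progenitor-like cluster, with 84.3 CPM (72.0 to 90.2), and in the monocyte- or macrophage-like cluster, with 83.3 CPM (74.5 to 98.1), and these ranges overlapped. It had 60.4 CPM (39.4 to 68.1) in the Gpnmb-high cluster, 52.5 CPM (50.3 to 53.6) in the specific-granule cluster, 38.1 CPM (31.5 to 48.6) in the stefin A-high cluster and 24.8 CPM (20.9 to 29.2) in the mature neutrophil-like cluster. Apart from the Gpnmb-high and specific-granule clusters, the neighbours below the leading pair did not overlap. Slc38a2 was spread far more evenly, from 99.1 CPM (81.2 to 115) in the Gpnmb-high cluster to 60.8 CPM (38.8 to 72.8) in the stefin A-high cluster. Between them lay 90.3 CPM (87.5 to 96.5) in the monocyte- or macrophage-like, 89.5 CPM (77.2 to 107) in the azurophil progenitor-like, 76.0 CPM (65.0 to 84.9) in the specific-granule and 72.1 CPM (68.5 to 81.0) in the mature neutrophil-like cluster, and every neighbour in this order overlapped. The ratio of Slc38a1 to Slc38a2 UMIs therefore ran from 0.942 (0.673 to 1.17) in the azurophil progenitor-like cluster to 0.344 (0.290 to 0.426) in the mature neutrophil-like cluster.

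LAT1 is a pair of proteins, and the transcripts of its subunits did not follow each other in every cluster. Slc7a5, the transporting subunit, had 47.8 CPM (37.3 to 65.1) in the azurophil progenitor-like cluster and 36.5 CPM (29.8 to 39.3) in the monocyte- or macrophage-like cluster, which overlapped. It had 19.3 CPM (12.8 to 27.5) in the specific-granule cluster and between 11.5 and 12.9 CPM in the Gpnmb-high, mature neutrophil-like and stefin A-high clusters, which overlapped with one another and with the specific-granule cluster. Slc3a2, the heavy chain, had 160.3 CPM (129 to 202) in the azurophil progenitor-like, 157 CPM (125 to 196) in the Gpnmb-high and 147 CPM (145 to 149) in the monocyte- or macrophage-like cluster, 3 ranges that overlapped. It was lower in the specific-granule cluster, with 94.9 CPM (90.6 to 100.3), in the stefin A-high cluster, with 79.2 CPM (67.5 to 104), and in the mature neutrophil-like cluster, with 70.1 CPM (57.7 to 84.0), each overlapping with its neighbour. The Gpnmb-high cluster was thus among the highest for Slc3a2 and the lowest for Slc7a5. There the ratio of Slc7a5 to Slc3a2 UMIs was 0.0734 (0.0468 to 0.0969), below the lowest library of the azurophil progenitor-like cluster, where it was 0.298 (0.285 to 0.327). The heavy chain also pairs with other light chains. One of them, the cystine-glutamate exchanger xCT encoded by Slc7a11, had 577 CPM in the Gpnmb-high cluster and 47.5 in the azurophil progenitor-like cluster. It had 256 CPM in the mature neutrophil-like cluster, which was the lowest for Slc3a2. Slc7a11 and Slc3a2 thus did not follow each other across clusters, and their pairing was not tested.

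The aminotransferases, like ASCT2, were highest in the azurophil progenitor-like and lowest in the mature neutrophil-like cluster. Got1 had 24.9 CPM (24.1 to 26.5) in the azurophil progenitor-like, 11.4 CPM (9.43 to 13.2) in the specific-granule and 4.27 CPM (3.76 to 4.68) in the mature neutrophil-like cluster. It had 21.1 CPM (18.7 to 24.5) in the monocyte- or macrophage-like, 8.72 CPM (6.92 to 15.1) in the Gpnmb-high and 8.60 CPM on 14 UMIs in the stefin A-high cluster. Got2 had 95.3 CPM (84.0 to 104), 44.6 CPM (40.0 to 49.3) and 26.5 CPM (23.5 to 29.2) in the same 3 neutrophil-like clusters. It had 70.4 CPM (63.6 to 84.5) in the monocyte- or macrophage-like, 45.5 CPM (23.8 to 66.8) in the stefin A-high and 35.5 CPM (24.9 to 39.8) in the Gpnmb-high cluster. For both genes the azurophil progenitor-like cluster overlapped with the monocyte- or macrophage-like cluster, and for both the specific-granule cluster stood below each of these in every library. Below the specific-granule cluster the neighbours overlapped for both genes, except that Got2 was apart between the specific-granule and Gpnmb-high clusters. The ratio of Got1 to Got2 UMIs was 0.261 (0.233 to 0.294) in the azurophil progenitor-like and 0.300 (0.221 to 0.330) in the monocyte- or macrophage-like cluster, and lower in the mature neutrophil-like cluster, with 0.161 (0.140 to 0.190).

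Glutamine synthetase and glutamate dehydrogenase were instead highest in the monocyte- or macrophage-like and Gpnmb-high clusters. Glul had 30.7 CPM (26.4 to 36.2) and 27.7 CPM (23.4 to 31.0) there, which overlapped. It had 18.9 CPM (18.1 to 19.9) in the mature neutrophil-like, 18.3 CPM (17.0 to 21.2) in the azurophil progenitor-like, 13.4 CPM (10.5 to 15.1) in the specific-granule and 11.1 CPM (2.25 to 22.6) in the stefin A-high cluster, the last on 18 UMIs. The mature neutrophil-like and azurophil progenitor-like clusters overlapped, as did the specific-granule and stefin A-high clusters. Glud1 had 140.1 CPM (127 to 147) and 134 CPM (126 to 139) in the same leading pair. In the other 4 clusters Glud1 lay between 101 and 104 CPM, with overlapping ranges. In the pooled cells, then, 4 of the 5 carriers (all but Slc38a2) and both aminotransferases were at their highest in the azurophil progenitor-like cluster. Glul and Glud1 were not. Library by library, Slc38a1 was higher in the monocyte- or macrophage-like than in the azurophil progenitor-like cluster, except in B2AR-/-+ISO (75.5 against 80.1 CPM). Slc3a2 was higher in the Gpnmb-high than in the azurophil progenitor-like cluster in WT+PBS (164 against 149 CPM) and WT+ISO (196 against 129 CPM). It was lower there in both libraries labelled B2AR-/-.

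In all, 7 of the 9 genes differed by at least 2-fold between the highest and the lowest of the 6 larger clusters, and the exceptions were Slc38a2 (1.63-fold) and Glud1 (1.38-fold). For each of the 9, the libraries of the highest and of the lowest cluster did not overlap. The share of all genes with such a spread is not given, so these counts only describe the 9. A few abundant transcripts take a large part of the totals behind these values. S100a8 and S100a9 alone had 110115 and 148549 CPM in the mature neutrophil-like cluster, against 41550 and 47379 in the azurophil progenitor-like cluster. With the 20 most abundant genes left out of the cluster totals, a setting chosen after seeing the data, 6 of 9 genes kept a 2-fold difference. Slc3a2 then had 1.66-fold and Slc1a5 6.46-fold. Per cell the gap was wider, since azurophil progenitor-like cells held more UMIs, with 1.63 Slc1a5 UMIs per cell against 0.0435 in mature neutrophil-like cells.

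Proliferation genes were ordered otherwise. The summed list of 15 proliferation genes had 3394 to 3642 CPM in the azurophil progenitor-like cluster and 3525 to 3624 CPM in the specific-granule cluster, ranges that overlap, against 114 to 135 CPM in the mature neutrophil-like cluster. Slc1a5, Slc38a1, Slc7a5, Slc3a2, Got1 and Got2 were all lower in the specific-granule than in the azurophil progenitor-like cluster, with no overlap between libraries. Over 22 sums of 1 cluster in 1 library each (2 of 24 held fewer than 50 cells), the log2(CPM + 1) of Slc1a5 correlated with that of Got1 (r of 0.91), Slc38a1 (0.85), Got2 (0.84) and the proliferation list (0.81). Glul and Glud1 correlated with Slc1a5 by 0.087 and 0.13, and Slc3a2 and Slc38a2 correlated with the summed list of the amino acid response governed by ATF4 by 0.88 and 0.81, or 0.89 and 0.69 without Cebpb, its most abundant gene. Without Cebpb, Slc38a2 did not stand out. The other genes then had 0.76 (Slc1a5), 0.72 (Slc38a1), 0.66 (Slc7a5), 0.66 (Got1), 0.65 (Got2), 0.39 (Glul) and 0.25 (Glud1). These points share libraries and cells of unequal depth, none of the genes described here is part of that list, and the values are a description.

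Among 5756 genes with at least 2000 UMIs, the genes whose pattern over these 22 sums was most like that of a carrier were Hdgf and Rpl8 (r of 0.98 for both) among those reported for Slc1a5, Ywhae, Psmd2 and Vac14 (r of 0.96 for each) for Slc38a1, and Iah1, Ube2g2 and Desi2 (r of 0.83 to 0.84) for Slc38a2. For Slc7a5 they were Dmkn, Kcnq5 and Apobec3 (r of 0.90 for each), and for Slc3a2 Timm10b, Cox8a and Rheb (r of 0.94 to 0.95). For the enzymes they were Cacul1, Sdhaf2 and Heatr5a (r of 0.92 to 0.94) for Glul, Zmiz1, Uvrag and Leprot (r of 0.93 to 0.94) for Glud1, Ap1s1, Cenpv and Ndufa9 (r of 0.95 to 0.96) for Got1 and Aimp1, Uqcrfs1 and Kcnq1ot1 (r of 0.96 for each) for Got2. Slc38a2, the gene with the flattest pattern among the carriers, had the lowest of these coefficients.

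The dendritic-cell-like cluster was small, and its values carry counting intervals. It had 209 CPM (95% interval 182 to 239.6) of Glud1 and 45.4 CPM (95% interval 33.2 to 60.8) of Got1, both above the level of each of the 6 larger clusters. Slc38a1 (85.8 CPM, 95% interval 68.6 to 106), Glul (34.3 CPM, 95% interval 23.8 to 48.0) and Slc3a2 were also above it, but their intervals held the highest level of the larger clusters. Slc7a5 had 12.1 CPM (95% interval 6.26 to 21.2) on 12 UMIs while Slc3a2 had 167 CPM (95% interval 142 to 194), a ratio of 0.0727 like that of the Gpnmb-high cluster. The cluster held 12 to 26 cells per library, too few for a comparison between groups.

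The study was concerned with how β-adrenergic signalling bears on glutamine use by MDSCs, and the libraries allow the transcripts of uptake and breakdown to be compared between groups. Over all cells of a library the 9 genes differed by 1.43-fold at most between any pair of libraries. With ISO in WT, 0 of 9 reached a 1.5-fold difference in either direction, where 1% of 10771 genes with at least 100 UMIs in the pair were higher and 5.5% lower by that size. All 9 genes had at least 100 UMIs in every pair of libraries. The median log2 ratio of the 9 was -0.11, against -0.016 for all these genes. With 1 library per group there is no replicate, no test was made, and the 95% intervals hold the error of counting alone.

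**Figure D2:**
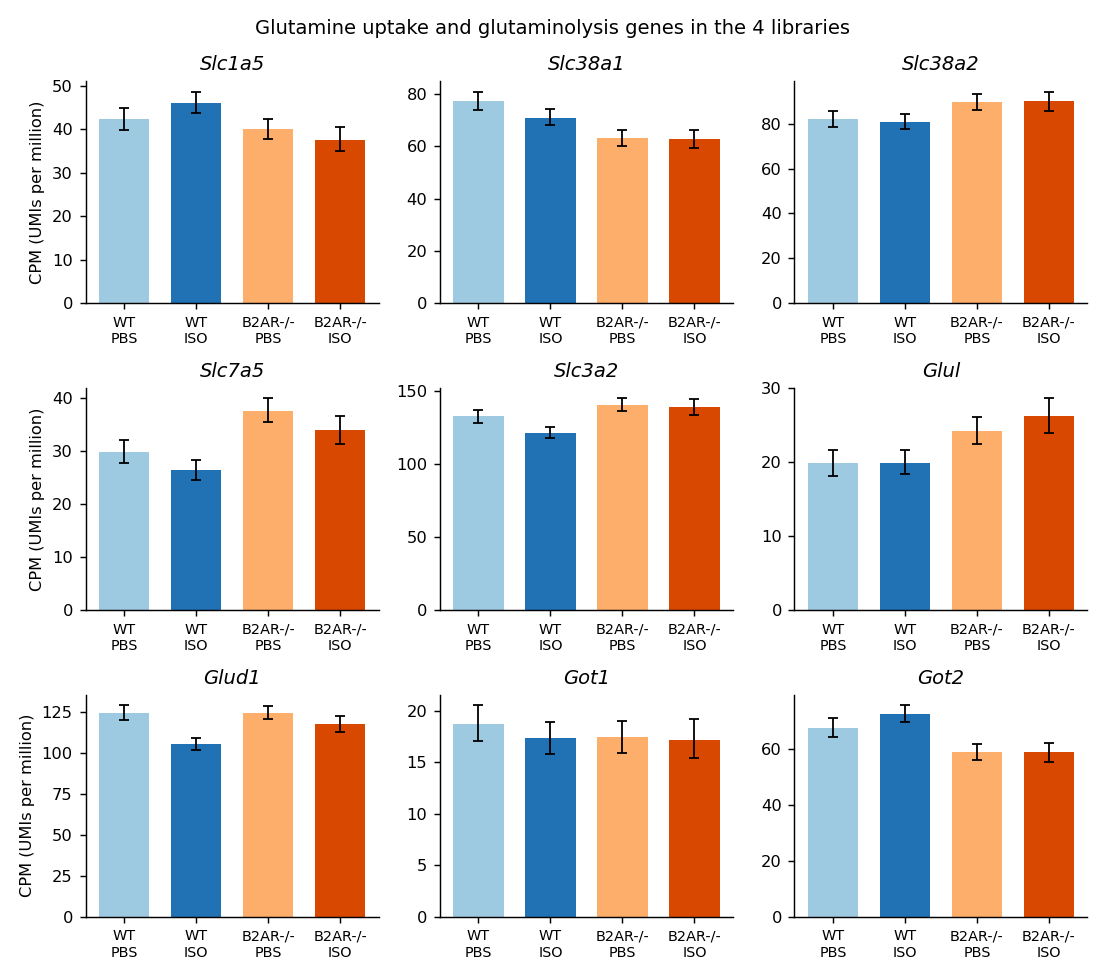
Level of each of the 9 genes (CPM over all cells, bars from 0) in the 4 libraries, with exact Poisson 95% intervals that cover counting error only. The 4 bars of each gene lie within 1.43-fold of each other, the widest for Slc7a5 and the narrowest for Got1.

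Among the carriers, Slc1a5 had 42.2 CPM in WT+PBS, 46.1 in WT+ISO, 40.0 in B2AR-/-+PBS and 37.6 in B2AR-/-+ISO. Its log2 ratio of ISO over PBS was 0.13 (0.0084 to 0.24) in WT and -0.091 (-0.23 to 0.045) in the libraries labelled B2AR-/-. WT+ISO was the highest of the 4 libraries and B2AR-/-+ISO the lowest. Slc38a1 had 77.4 CPM in WT+PBS, 71.0 in WT+ISO, 63.1 in B2AR-/-+PBS and 62.7 in B2AR-/-+ISO, with both WT libraries above both libraries labelled B2AR-/- and a ratio of -0.12 (-0.21 to -0.033) for ISO in WT. Slc38a2 had 82.1 CPM in WT+PBS, 81.0 in WT+ISO, 89.7 in B2AR-/-+PBS and 90.0 in B2AR-/-+ISO, and its ratio for ISO was -0.020 (-0.11 to 0.067) in WT and 0.0057 (-0.083 to 0.094) in the libraries labelled B2AR-/-, both within counting error of 0. With every cell given equal weight, so that large cells do not weigh more, the ratio in WT was -0.24 instead.

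Slc7a5 had 29.8 CPM in WT+PBS, 26.3 in WT+ISO, 37.6 in B2AR-/-+PBS and 33.9 in B2AR-/-+ISO. Over all cells it was lower with ISO in both genotypes. The log2 ratios were -0.18 (-0.33 to -0.031) in WT and -0.15 (-0.29 to -0.0075) in the libraries labelled B2AR-/-. Slc3a2 had 132 CPM in WT+PBS, 121 in WT+ISO, 140.4 in B2AR-/-+PBS and 139 in B2AR-/-+ISO, with ratios of -0.13 (-0.20 to -0.058) and -0.017 (-0.088 to 0.054). For both subunits of LAT1 the WT+ISO library was the lowest of the 4. With equal weight per cell, the ratio of Slc7a5 in the libraries labelled B2AR-/- was 0.019 and that of Slc3a2 in WT 0.0080.

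Among the enzymes, Glud1 had 125 CPM in WT+PBS, 106 in WT+ISO, 125 in B2AR-/-+PBS and 118 in B2AR-/-+ISO. Its ratio of ISO over PBS in WT, -0.24 (-0.31 to -0.17), lay farthest from 0 of the 9 over summed UMIs (with equal weight per cell it was -0.24, beside -0.24 for Slc38a2), and that in the libraries labelled B2AR-/- was -0.080 (-0.16 to -0.0041). Got2 had 67.8 CPM in WT+PBS, 72.7 in WT+ISO, 59.1 in B2AR-/-+PBS and 58.9 in B2AR-/-+ISO, a ratio of 0.10 (0.0070 to 0.19) in WT and -0.0054 (-0.12 to 0.10) in the others. The mitochondrial aminotransferase was thus higher in both WT libraries than in both libraries labelled B2AR-/-.

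Got1 had 18.7 CPM in WT+PBS, 17.3 in WT+ISO, 17.4 in B2AR-/-+PBS and 17.2 in B2AR-/-+ISO, with intervals that spanned 0 in all 4 comparisons. Glul had 19.8 CPM in WT+PBS, 19.9 in WT+ISO, 24.3 in B2AR-/-+PBS and 26.2 in B2AR-/-+ISO, and its ratio was 0.0066 (-0.17 to 0.18) in WT and 0.11 (-0.055 to 0.28) in the libraries labelled B2AR-/-, both with intervals that spanned 0. For Got1 and Glul a difference with ISO over all cells was not detectable at this depth. In the monocyte- or macrophage-like cluster Got1 had -0.39 (-0.75 to -0.031) with ISO in WT, on 101 and 185 UMIs. In the azurophil progenitor-like and specific-granule clusters it had -0.058 and 0.36, with intervals that spanned 0.

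In the libraries labelled B2AR-/-, 0 of 9 genes reached 1.5-fold with ISO, where 0.587% of 10734 genes were higher and 0.997% lower by that size, and the median of the 9 was -0.017 against -0.039 for all genes. The difference of the ISO ratio between genotypes, WT minus B2AR-/-, had a counting interval without 0 for 3 of 9 genes, 0.22 (0.039 to 0.39) for Slc1a5, -0.16 (-0.26 to -0.054) for Glud1 and -0.11 (-0.21 to -0.012) for Slc3a2. It spanned 0 for the other 6. The share of all genes with such an interval is not given, so the count cannot be read as particular to these genes. Glud1 and Slc3a2 had ratios below 0 in both genotypes and differed in size, whereas those of Slc1a5 lay on opposite sides of 0. These intervals leave out the spread between cultures, which was not measured.

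**Figure D3:**
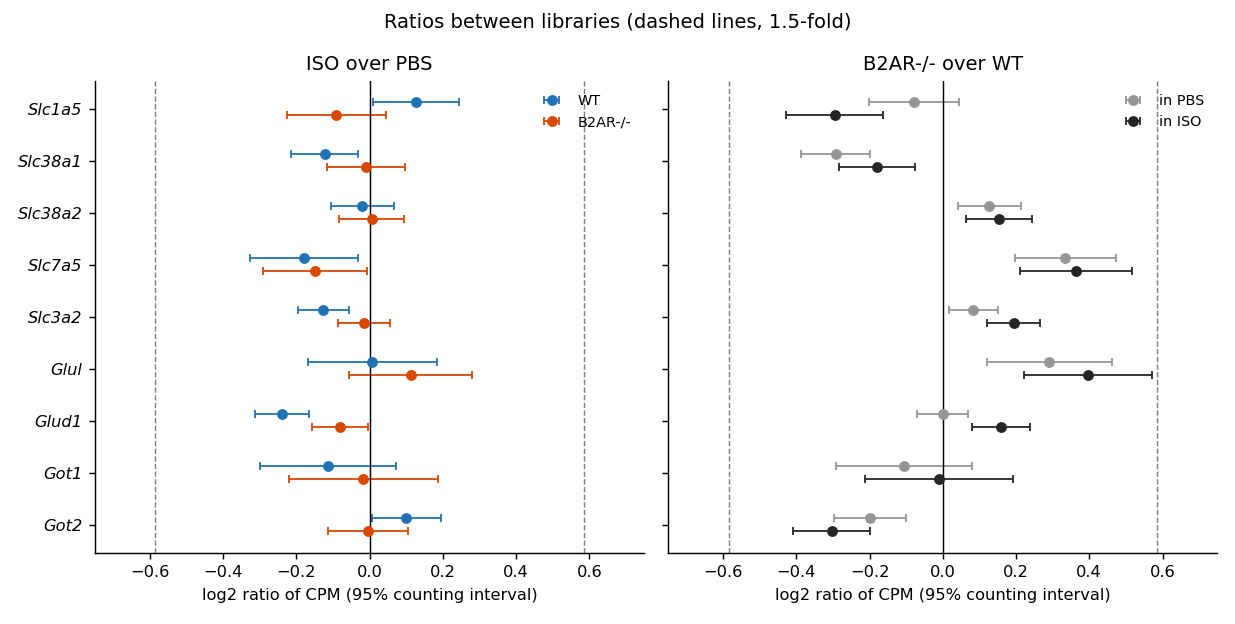
Log2 ratio of CPM for each of the 9 genes, ISO over PBS on the left and B2AR-/- over WT on the right, with exact conditional 95% intervals for counting error only and dashed lines at 1.5-fold. All points lie within the dashed lines, and the genotype ratios in PBS and in ISO fall on the same side of 0 for every gene but Glud1.

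The widest ratios lay between the genotypes. In PBS, 0 of 9 genes reached 1.5-fold, where 2.88% of 10861 genes were higher and 1.52% lower, and in ISO 0 of 9, where 9.08% of 10645 were higher and 6.83% lower. Slc7a5 was higher in the libraries labelled B2AR-/-, with log2 ratios of 0.33 (0.20 to 0.47) in PBS and 0.36 (0.21 to 0.52) in ISO, and so was Glul, with 0.29 (0.12 to 0.46) and 0.40 (0.22 to 0.57). Slc38a2 had 0.13 (0.042 to 0.21) and 0.15 (0.063 to 0.24), and Slc3a2 0.083 (0.016 to 0.15) and 0.19 (0.12 to 0.27). The sign of these smaller ratios turned with equal weight per cell, to -0.064 for Slc38a2 in PBS and to -0.074 and -0.036 for Slc3a2. Lower in both were Slc38a1, with -0.29 (-0.39 to -0.20) and -0.18 (-0.28 to -0.077), and Got2, with -0.20 (-0.30 to -0.099) and -0.30 (-0.41 to -0.20). Slc1a5 had -0.078 (-0.20 to 0.045) and -0.30 (-0.43 to -0.16). For Glud1 the values were -0.00035 (-0.071 to 0.070) and 0.16 (0.080 to 0.24), and for Got1 -0.11 (-0.29 to 0.080) and -0.0092 (-0.21 to 0.19). The interval lay above 0 for 4 genes and below it for 2 in PBS, and above 0 for 5 and below it for 3 in ISO. The share of all genes with such an interval is not given. At these counts it leaves out 0 even for small ratios, such as 0.083 for Slc3a2 in PBS. The PBS and ISO comparisons of genotype use different libraries, but the source animals behind them are not given in the sources used here. Each library also enters a comparison of ISO, so the ratios of ISO and of genotype share samples.

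The shares of the clusters differed between the libraries as well. The azurophil progenitor-like cluster made up 15.2% of cells in WT+PBS, 20.8% in WT+ISO, 12.5% in B2AR-/-+PBS and 10.7% in B2AR-/-+ISO, and the monocyte- or macrophage-like cluster 20.5%, 12.9%, 29.4% and 25.2%. With the clusters held at the same weights in both libraries of a pair, the genotype ratio of Slc1a5 in ISO was -0.085 in place of -0.30, and that of Glul 0.20 in place of 0.40. The ratios of Slc7a5 were 0.35 in PBS and 0.48 in ISO, against 0.33 and 0.36 over all cells. Those of Slc38a1, -0.30 and -0.19, and of Got2, -0.17 and -0.22, kept their sign. For ISO in WT, Slc1a5 had 0.072, Glud1 -0.16 and Slc3a2 -0.033. For ISO in the libraries labelled B2AR-/-, these genes had -0.017, -0.061 and 0.040 in the same order.

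Within clusters, Slc7a5 was past 1.5-fold between genotypes in 4 comparisons, Slc3a2 in 1 and Slc38a1 in 1. In the azurophil progenitor-like cluster it had 42.5 CPM in WT+PBS, 37.3 in WT+ISO, 65.1 in B2AR-/-+PBS and 57.5 in B2AR-/-+ISO. Both libraries labelled B2AR-/- thus stood above both WT libraries, with log2 ratios of 0.62 (0.41 to 0.82) in PBS and 0.62 (0.39 to 0.85) in ISO. Slc3a2 had 149, 129, 199 and 202 CPM in the same order of libraries, with ratios of 0.42 (0.31 to 0.53) and 0.65 (0.53 to 0.77). Slc38a2 was higher in this cluster too, with 0.47 (0.31 to 0.63) and 0.25 (0.080 to 0.41). Of the 9 genes, 1 passed 1.5-fold in PBS (3.65% of all genes tested in the cluster, either direction) and 2 passed it in ISO (11.2%), Slc7a5 in both and Slc3a2 in ISO. With ISO, 0 of 9 passed it in WT (2.02%) and 0 of 9 in the libraries labelled B2AR-/- (1.61%).

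**Figure D4:**
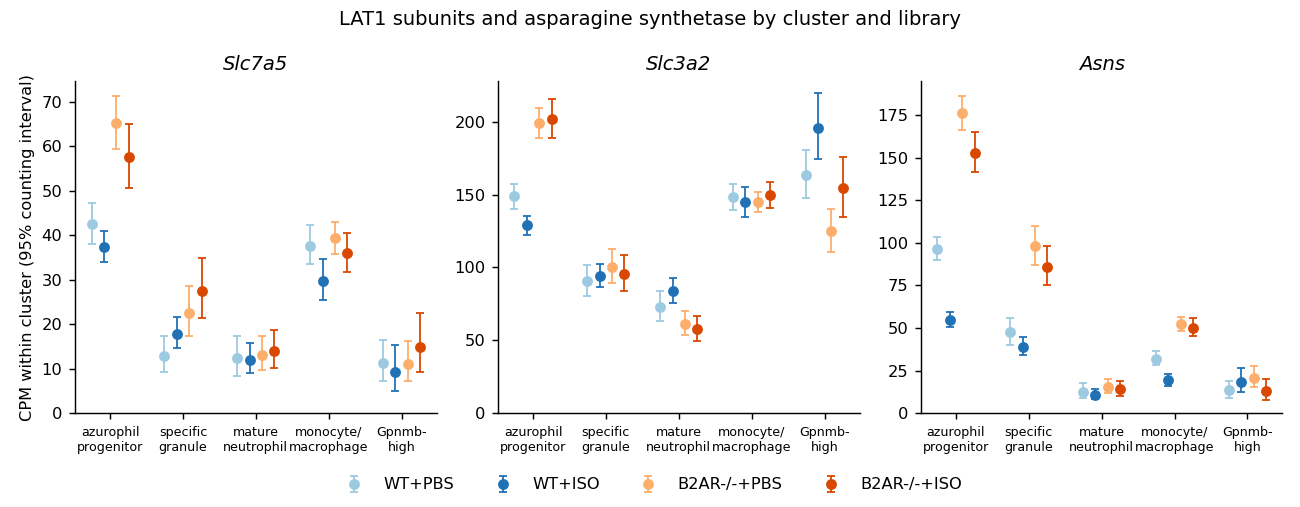
Level (CPM within the cluster, axis from 0) of the LAT1 subunits Slc7a5 and Slc3a2 and of Asns in 5 clusters, with 1 point per library and exact Poisson 95% intervals for counting error only. In the azurophil progenitor-like cluster both libraries labelled B2AR-/- lie above both WT libraries for all 3 genes, and in the monocyte- or macrophage-like cluster the 4 libraries lie close together for Slc3a2 but not for Asns.

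In the specific-granule cluster Slc7a5 had 12.8, 17.8, 22.4 and 27.5 CPM in the same order, again with both libraries labelled B2AR-/- above both WT libraries. The ratios were 0.81 (0.23 to 1.41) in PBS, on 66 and 41 UMIs, and 0.63 (0.17 to 1.08) in ISO. It was the 1 gene of 7 past 1.5-fold there in PBS (2.54% of all genes) and the 1 of 9 in ISO (5.61%). With ISO there were 0 of 9 in WT (3.11%) and 0 of 7 in the libraries labelled B2AR-/- (1.91%). Slc3a2 in this cluster had 0.15 and 0.017, so the subunits did not move together there. With ISO, Slc7a5 lay above 0 in this cluster, unlike over all cells. Its ratios were 0.48 (-0.058 to 1.03) in WT and 0.29 (-0.21 to 0.80) in the libraries labelled B2AR-/-, with intervals that spanned 0.

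In the monocyte- or macrophage-like cluster Slc7a5 had 0.060 (-0.16 to 0.28) in PBS and 0.27 (-0.018 to 0.56) in ISO, and Slc3a2 -0.034 (-0.14 to 0.076) and 0.047 (-0.086 to 0.18). Slc38a1 and Got2 were lower there in the libraries labelled B2AR-/-, Slc38a1 with -0.40 (-0.54 to -0.25) and -0.29 (-0.47 to -0.12) and Got2 with -0.27 (-0.43 to -0.12) and -0.41 (-0.60 to -0.22). None of the 9 passed 1.5-fold in this cluster (0 in each comparison). The shares of all genes that did were 4.82% for ISO in WT, 1.75% for ISO in the libraries labelled B2AR-/-, 4.58% for genotype in PBS and 12% for genotype in ISO.

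In the mature neutrophil-like cluster 6 of 9 genes had 100 UMIs in the pair, and 0 passed 1.5-fold in each of the 4 comparisons, where 3.88%, 1.5%, 2.46% and 6.73% of all genes did in the same order. Slc3a2 had genotype ratios there of -0.25 (-0.53 to 0.033) in PBS and -0.54 (-0.80 to -0.28) in ISO, on the opposite side of 0 from the azurophil progenitor-like cluster. In the Gpnmb-high cluster 4 to 7 of the 9 genes had 100 UMIs. Slc3a2 was lower there too in the libraries labelled B2AR-/-, with -0.39 (-0.62 to -0.16) in PBS and -0.35 (-0.60 to -0.092) in ISO. Got2 passed 1.5-fold with ISO in WT, 1 of 5 genes (7.5% of all), with -0.68 (-1.26 to -0.12) on 38 and 92 UMIs. Slc38a1 passed it with ISO in the libraries labelled B2AR-/-, 1 of 6 (3.05%), with -0.67 (-1.14 to -0.22), and for genotype in ISO, 1 of 4 (7.83%), with -0.79 (-1.28 to -0.31), while for genotype in PBS 0 of 7 did (3.68%). Both rest on the B2AR-/-+ISO library, which had 39.4 CPM of Slc38a1 there against 62.9 to 68.1 CPM in the others, and whose cells in this cluster had the lowest median of UMIs (2518.5).

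Across clusters with enough counts, Slc7a5 was higher in the libraries labelled B2AR-/- in 3 of 3 clusters in PBS and 3 of 3 in ISO, and Slc38a1 was lower in 5 of 5 in PBS and 4 of 5 in ISO. Glul had ratios above 0 in 4 of 4 clusters with ISO in WT, between 0.047 and 0.27, but each had an interval that spanned 0. Its ratio over all cells was 0.0066. Glud1 was lower with ISO in WT in 4 of 5, between -0.31 and 0.023. Slc1a5, whose ratio over all cells lay above 0, was above 0 in 1 of 3 clusters. It had -0.0076 in the azurophil progenitor-like and 0.19 in the monocyte- or macrophage-like cluster. In the mature neutrophil-like and Gpnmb-high clusters, left out of this count for fewer than 100 UMIs, it had 1.28 and 0.28. Clusters of 1 library share the culture, and these counts are a description.

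The size of the genotype difference of LAT1 depended on how its cells were drawn. These settings were chosen after seeing the data. In the cluster highest in Mpo at a finer resolution (653 cells), Slc7a5 had 0.40 in PBS and 0.22 in ISO. Its interval spanned 0 in ISO. Slc3a2 had 0.34 and 0.47 there, and neither gene reached 1.5-fold. With 4000 variable genes (1597 cells), Slc7a5 had 0.59 and 0.56 and Slc3a2 0.36 and 0.28. Among the 687 cells of the azurophil progenitor-like cluster above the median of the proliferation list, Slc7a5 had 0.80 and 0.81, and among the other 687 it had 0.37 and 0.34. The last of these also had an interval that spanned 0. The sign was the same in each, and the size was not. Cells with a UMI of the eosinophil genes Prg2, Epx or Prg3 numbered 13, 11, 19 and 1 in this cluster in the order WT+PBS, WT+ISO, B2AR-/-+PBS and B2AR-/-+ISO. Without them, 1330 cells gave 0.63 and 0.61 for Slc7a5 and 0.40 and 0.65 for Slc3a2.

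Asns, which makes asparagine with the amide nitrogen of glutamine and is a known target of ATF4, moved with the LAT1 subunits in the azurophil progenitor-like cluster. It had 96.5 CPM in WT+PBS, 55.0 in WT+ISO, 176 in B2AR-/-+PBS and 153 in B2AR-/-+ISO, a genotype ratio of 0.87 (0.74 to 1.00) in PBS and 1.47 (1.32 to 1.63) in ISO. It was higher also in the specific-granule cluster, by 1.04 and 1.14, and in the monocyte- or macrophage-like cluster, by 0.71 and 1.39, where Slc3a2 did not differ by more than counting error. With ISO in WT its log2 ratio over all cells was -0.48 (-0.60 to -0.36), on the same side of 0 as Slc7a5 and Slc3a2. The summed ATF4 list in the azurophil progenitor-like cluster was 1997 and 1889.6 CPM in the WT libraries and 2406 and 2396 in those labelled B2AR-/-. One gene, Cebpb, gave a large part of each sum. Without it, a setting added after seeing the data, the sums were 1123, 1011, 1427 and 1396 CPM in the same order. Asns is itself part of the list. In the same order and without Cebpb, the specific-granule cluster had 545, 508, 768 and 676 CPM. Other clusters differed, with 652, 773, 687 and 711 in the monocyte- or macrophage-like cluster and 390, 473, 380 and 424 in the mature neutrophil-like cluster. The Gpnmb-high cluster had 787, 1135, 550 and 850 CPM.

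Promoter sequence was searched because Asns, a known ATF4 target, stood higher beside the LAT1 subunits in the azurophil progenitor-like cluster. ATF4 acts with C/EBP proteins through composite elements, here the letters TGATGNAA on either strand of the 250 bases before a RefSeq start (GRCm38.p6). Entries existed for 6 of the 9 genes, not for Slc1a5, Slc38a1 and Slc7a5, and the entry of Slc3a2 belongs to a start inside the annotated gene. The letters stood in 3.45% of 32851 such windows, in 1 of the 6 genes, Got1, and also in Asns. Both matches are shown in 30 bases of the gene's own strand, 5′ to 3′, with the match in capitals, which for Got1 is the reverse complement. The Asns stretch lies at chr6:7693214-7693243 and that of Got1 at chr19:43524689-43524718, both on the minus strand, with the first capital 23 and 102 bases before the start.
Asns: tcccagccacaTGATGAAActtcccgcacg
Got1: cattgcattggTTGCATCAtacaagcctcc
Over all cells Got1 did not differ between libraries beyond counting error, whereas Asns did. A match of letters is a description and not a site. The cAMP response element TGACGTCA, which stood in 1.55% of windows, and the E-box CACGTG, in 6.02%, matched 0 of the 6 genes on either strand, which says only that these letters are not in these windows.

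Of the other carriers of glutamine, glutamate and large neutral amino acids, 8 of 18 had 100 UMIs in the pair of WT libraries, and 0 of 8 passed 1.5-fold with ISO, with a median log2 ratio of -0.16. Slc38a9, a lysosomal arginine sensor and carrier, had -0.45 (-0.60 to -0.29), Slc43a2, a carrier of large neutral amino acids, -0.30 (-0.40 to -0.19), Slc7a11, which is also in the ATF4 list, 0.27 (0.21 to 0.32) and Slc38a7, a lysosomal glutamine exporter, -0.18 (-0.51 to 0.15). In the libraries labelled B2AR-/- with ISO, 0 of 8 passed it, for genotype in PBS 0 of 8 and in ISO 1 of 8, which was lower (Slc7a6, -0.62, with 6.83% of all genes lower). Of 7 genes of the malate-aspartate shuttle and mitochondrial glutamate transport, 6 were measured and 0 passed it in any of the 4 comparisons. Slc25a22, a mitochondrial glutamate carrier, had 0.43 (-0.0076 to 0.88) with ISO in WT and -0.44 (-0.95 to 0.060) in the libraries labelled B2AR-/-, Slc25a13, an aspartate-glutamate carrier, had -0.27 (-0.43 to -0.10), its relative Slc25a12 0.026 and Mdh2 0.12 (0.075 to 0.17) in WT.

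Of 12 glutaminases and enzymes that use the amide nitrogen of glutamine, 10 were measured and 0 passed 1.5-fold with ISO in WT, with a median of 0.13. Asns, given above, was lowest, and Ctps, which makes CTP, had 0.37 (0.17 to 0.57), Pfas 0.22 (-0.070 to 0.52) and Cad 0.20 (-0.041 to 0.45), both of nucleotide synthesis. For genotype in ISO, where 9.08% of all genes were higher and 6.83% lower, 1 of 10 was higher (Asns, 0.93) and 3 were lower, Ppat (-0.97), Cad (-0.94) and Ctps (-0.91), all of nucleotide synthesis. For genotype in PBS (2.88% higher and 1.52% lower), Asns was higher (0.66) and Ppat lower (-0.75). The proliferation list moved in the same direction as the nucleotide genes over all cells, with medians of -0.18 in PBS and -0.52 in ISO. In ISO 4 of its 15 genes were past 1.5-fold lower, and its part in the nucleotide genes was not tested. In the clusters where all 15 were measured, its median for genotype in ISO was 0.0016 (azurophil progenitor-like), -0.0069 (specific-granule) and -0.49 (monocyte- or macrophage-like). In the azurophil progenitor-like cluster, 1 of 9 measured amide nitrogen enzymes was higher and 4 were lower by that fold (11.2% of all genes, either direction). With ISO in WT all 15 proliferation genes lay above 0 over all cells, with a median of 0.18, and 0 of 15 passed 1.5-fold. Cdc20 had 0.33, Cdk1 0.29, Rrm2 0.26 and Birc5 0.25. Within the same clusters the median with ISO in WT was -0.0015 (azurophil progenitor-like), -0.037 (specific-granule) and 0.13 (monocyte- or macrophage-like).

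Of 14 other enzymes of glutamate use, 13 were in the files and 11 were measured. With ISO in WT 1 of 11 passed 1.5-fold (1% of all genes were higher and 5.5% lower), Gclm, a subunit of the enzyme that joins glutamate to cysteine in glutathione synthesis, with 0.97 (0.92 to 1.02). Aldh18a1, which starts proline synthesis from glutamate, had -0.50 (-0.71 to -0.30), Bcat1, a branched-chain aminotransferase, -0.46 (-0.92 to -0.0042) and Gpt 0.35 (0.064 to 0.63). Gpt2, the mitochondrial alanine aminotransferase and another exit from glutamate to α-ketoglutarate, was higher in the libraries labelled B2AR-/-, by 0.89 (0.51 to 1.28) in PBS and 0.82 (0.39 to 1.24) in ISO. It was the 1 of 11 past 1.5-fold higher in each (2.88% and 9.08% of all genes), and in ISO 1 was lower (Gpt, -0.73, with 6.83% of all genes lower), while with ISO in the libraries labelled B2AR-/- 0 of 11 passed it. Of 14 genes of the ATF4 response 12 were measured. With ISO in WT 1 of 12 was lower (5.5% of all genes), Sesn2, with -0.73 (-0.94 to -0.52), and Trib3 had -0.51 (-0.73 to -0.28) and Chac1 -0.40 (-0.74 to -0.068). For genotype in ISO (9.08% of all genes higher, 6.83% lower) 4 of 12 were higher, Trib3 (1.16), Sesn2 (1.08), Asns (0.93) and Chac1 (0.90), and in PBS 1 of 12, Asns (2.88% of all). Other genes of the list went the other way, Phgdh with -0.47 (-0.54 to -0.40) and Slc7a11 with -0.076 in ISO, and the median of the 12 was 0.23 in both. Genes named for genotype in these lists were chosen after their values were seen.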

How the data were processed

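Gene by cell UMI counts were deposited by the authors as 1 feature-barcode matrix per library, not normalised. The submitters' processing notes name Cell Ranger 6.0.0, Seurat and mm10, whereas the file headers name Cell Ranger 7.0.0. The use of introns and the rule that assigned barcodes to libraries (multiplexed, with 12 tags in the files) are not given in the sources used here. Cells below 200 genes or above 10% mitochondrial UMIs were dropped. Of the rest, 16 cells (0.172%) were called doublets by the Scrublet method, too few for the caller to have worked, and were kept. Counts were summed per library or cluster and expressed as CPM, with exact Poisson intervals for levels and exact conditional binomial intervals for ratios (95%, counting error only). UMIs are molecules, but cells of 1 library share a culture.

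Clustering used scanpy 1.11.5 and leidenalg 0.10.2 (2000 variable genes without the members and the pathway lists, 30 components, 15 neighbours, resolution 0.4). A gene was measured in a comparison with at least 100 UMIs in the pair and counted as past the fold from 1.5-fold. Named were all 9 genes, up to 4 genes per list with the widest ratio of ISO over PBS in WT, and the 3 genes nearest in pattern. Members and lists were chosen with earlier results of these data known. The ratios and their intervals were tested on simulated Poisson counts, the counting model that these intervals assume. The alternatives were other cell filters, library totals, cell weights, cluster settings and UMI minimum. Promoters came from RefSeq. Some genes are not reported here.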

Additional observations from a re-analysis of the deposited data

Results flagged for a closer look

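The ISO over PBS ratio of Slc1a5 in WT minus that in the libraries labelled B2AR-/- was 0.217 on the log2 scale, with a counting interval of 0.039 to 0.39. Slc1a5 was singled out because its ratios had opposite signs, 0.13 in WT and -0.091 in the others, with 1 library in each group. How far cultures of 1 group differ was not measured. The azurophil progenitor-like cluster, which held 52.6% of the Slc1a5 UMIs, made up 20.8% of WT+ISO cells and 10.7% of B2AR-/-+ISO cells. Within that cluster the ratios were -0.0076 in WT and -0.084 in the libraries labelled B2AR-/-. They were 0.19 and 0.070 in the monocyte- or macrophage-like cluster and -0.022 and 0.089 in the specific-granule cluster. Below the minimum of 100 UMIs, they were 0.28 and 0.047 in the Gpnmb-high cluster. In the mature neutrophil-like cluster, also below it, they were 1.28 (0.39 to 2.28), on 53 and 13 UMIs, and -0.14. With the clusters held at the same weights in both libraries of a pair, the ratios were 0.072 in WT and -0.017 in the libraries labelled B2AR-/-. They lay closer together than those over all cells, and beyond this the part of the cell shares was not tested.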

How the results depend on the processing

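No paired analysis was possible because there is a single library in every group. Across 9 alternative settings the 9 genes in 4 comparisons gave 324 ratios, from -0.41 to 0.48 on the log2 scale, of which 0 passed 1.5-fold. The minimum of 20 UMIs could not change any of them, as all 9 genes had at least 100 UMIs in every pair. The removal of called doublets took out only 16 cells. Of these ratios, 13 moved by more than the counting error, 8 with equal weight per cell and 5 with clusters at fixed weights. The other sign was seen in 36, 10 of them with equal weight per cell and 7 with clusters at fixed weights. With equal weight per cell, Slc3a2 had 0.0080 for ISO in WT and -0.036 for genotype in ISO. Totals without the 20 most abundant genes shifted all ISO ratios in WT by 0.042 and median-of-ratios size factors by 0.048, and under the latter 2 genes in place of 3 had a difference between genotypes with an interval without 0. A 2-fold spread between clusters was reached by 7 genes as reported, 9 at the finer resolution, 7 with 4000 variable genes, 7 after thinning to 2000 UMIs per cell and 6 without the 20 most abundant genes, a setting added after seeing the data.

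With 1 library per group, the culture, its animals and the condition cannot be told apart, and depth limits only the counting error. Within clusters, 4 to 9 of the genes had enough UMIs to be compared, and the stefin A-high and dendritic-cell-like clusters had too few. Intervals leave out the spread between cultures, which only further cultures would show.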

Other observations

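Transcripts of Gclm and Slc7a11, which serve glutathione synthesis from glutamate and cystine, were highest with ISO in WT. Gclm had 187 CPM in WT+PBS, 366 in WT+ISO, 192 in B2AR-/-+PBS and 248 in B2AR-/-+ISO, and Slc7a11 had 169 CPM in WT+PBS, 203 in WT+ISO, 143 in B2AR-/-+PBS and 193 in B2AR-/-+ISO. The log2 ratio of ISO over PBS in the libraries labelled B2AR-/- was 0.37 (0.31 to 0.42) for Gclm and 0.43 (0.37 to 0.49) for Slc7a11. Within clusters Slc7a11 differed from this. From PBS to ISO in WT it went from 36.9 to 65.3 CPM (azurophil progenitor-like), 37.5 to 56.2 (specific-granule), 215 to 316 (mature neutrophil-like), 220 to 376 (monocyte- or macrophage-like) and 571 to 878 (Gpnmb-high). In the libraries labelled B2AR-/- it went from 39.7 to 31.6, 70.0 to 40.1, 199.9 to 273, 170 to 215 and 337 to 642 CPM in the same order. These values have 1 library per group and no test.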
